A study of Mus musculus with 13 samples.

Results

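The 9 genes described here belong to the retinoic acid system and were chosen by name for their roles in it: the retinol dehydrogenase gene Rdh10, the retinaldehyde dehydrogenase genes Aldh1a1 and Aldh1a2, the degrading enzyme gene Cyp26b1, the carrier gene Crabp1, the receptor genes Rara, Rarg and Rxra, and the target gene Stra8. All 9 were found among the 25965 genes of the deposited table, and all 9 passed the filter on low values (a mean of 1 RPM or more over the 13 libraries, RPM being reads scaled to a common library total), as did 16235 genes in all. The RNA is that of entire testes, without their tunica albuginea, of mice aged 15 weeks, from a study that asks what Wfdc15a does in spermatogenesis. The genotypes were wild type (WT, n = 3), Wfdc15a+/- (Het, n = 4) and Wfdc15a-/- (KO, n = 6), and WT and Het together form the control group (n = 7), as in the study's design. No treatment is named, and strain, the kind of knockout allele and litters were not stated. A number in the sample titles, here called the title number, has no stated meaning. Number 1 belongs to Het replicate 1 and KO replicates 1 to 3, and number 2 to all WT libraries, Het replicates 2 to 4 and KO replicates 4 to 6.

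Retinoic acid is made from vitamin A inside tissues in a pair of oxidation steps, retinol to retinaldehyde and retinaldehyde to retinoic acid, and is removed by enzymes of the CYP26 family. It acts by binding retinoic acid receptors (RAR), which sit on DNA as pairs with retinoid X receptors (RXR). In the testis it is known to drive the differentiation of spermatogonia and their entry into meiosis, in waves along the seminiferous tubule. Sertoli cells, germ cells and the cells around the tubule are each known to carry some of the enzymes and receptors, so in RNA of whole testis fewer cells of a type and less RNA per cell cannot be told apart.

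The libraries held 4.22 to 10.1 M reads in listed genes, and 1 read was worth 0.0899 to 0.222 RPM. Wfdc15a itself was at 53.5 to 85.8 RPM among controls against 19.4 to 81.3 RPM in the KO-labelled libraries (log2 difference -0.66, two-sided exact permutation p = 0.0338), of which 5 of 6 lay under the control mean. By title number, the KO-labelled libraries of number 1 held 19.4 to 33.4 RPM (log2 -1.21 against controls, limma adjusted p = 0.00018). Those of number 2 held 48.1 to 81.3 RPM (-0.11, limma adjusted p = 0.746). The difference, number 2 minus number 1, was 1.10 (limma adjusted p = 0.0412). As the level of Wfdc15a does not tell all 6 KO-labelled libraries from the controls, they go by their label. The markers of the labelled tissue were present among controls, such as Sox9 of Sertoli cells (11.4 ± 3.89 RPM, SD, n = 7), Cyp17a1 of Leydig cells (1235 ± 205 RPM) and Sycp3 of meiotic cells (108 ± 15.6 RPM). The epididymal genes Lcn5 and Lcn8 had no reads in any library. In the KO-labelled libraries 18.4% of the 16235 tested genes were called higher and 6.18% lower than among controls (limma on log2(RPM + 1), Benjamini-Hochberg adjusted p under 0.05), and the median difference of all tested genes was 0.16 on the log2 scale. That median, and the excess of higher over lower calls, depend on scaling each library to its total. In place of 2994 higher and 1003 lower, median-of-ratios scaling gave 1712 and 1717 (median 0.02), and quantile normalization 1460 and 1532 (median -0.01).

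Among the 9 genes, 3 rose in the KO-labelled libraries and none fell: Aldh1a1, which makes retinoic acid, Cyp26b1, which breaks it down, and Stra8, which retinoic acid induces. The 3 of 9 stand beside 18.4% of all tested genes called higher and 6.18% called lower, and are not read as particular to this group. The median difference over the 9 was 0.33 on the log2 scale, beside 0.16 for all tested genes. By unadjusted p under 0.05, which 36.8% of all tested genes reached, 5 members were higher and none lower, and limma-voom on recovered reads also called 3 higher and none lower. The remaining 6 did not pass the test. The promoters of the 3 genes that rose, from RefSeq on GRCm38.p6, are shown because retinoid receptors are known to act through such windows. Each window runs from 250 bases before the gene's start to 50 after it, 5′ to 3′ on the gene's strand. The start is RefSeq's and can differ from the ends of the gene intervals given with each gene, which are those of the deposited table. Capitals mark the short receptor motifs AGGTCA or AGTTCA or GGGTCA or GGTTCA, searched on both strands, and no match in these windows overlapped another.
Stra8, chr6:34920698-34920997, plus strand: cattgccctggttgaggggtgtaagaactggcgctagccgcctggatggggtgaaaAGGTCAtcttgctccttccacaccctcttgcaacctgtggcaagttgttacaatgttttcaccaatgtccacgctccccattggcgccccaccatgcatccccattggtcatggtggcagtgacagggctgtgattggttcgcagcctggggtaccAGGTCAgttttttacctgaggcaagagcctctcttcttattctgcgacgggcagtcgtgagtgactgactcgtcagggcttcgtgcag
Aldh1a1, chr19:20601718-20602017, plus strand: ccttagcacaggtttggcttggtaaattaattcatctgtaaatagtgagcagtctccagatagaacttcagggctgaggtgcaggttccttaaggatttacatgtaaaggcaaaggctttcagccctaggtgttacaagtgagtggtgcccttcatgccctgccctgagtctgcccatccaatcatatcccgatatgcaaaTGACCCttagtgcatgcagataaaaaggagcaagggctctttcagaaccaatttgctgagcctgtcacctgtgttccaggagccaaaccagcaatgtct
Cyp26b1, chr6:84593761-84594060, minus strand: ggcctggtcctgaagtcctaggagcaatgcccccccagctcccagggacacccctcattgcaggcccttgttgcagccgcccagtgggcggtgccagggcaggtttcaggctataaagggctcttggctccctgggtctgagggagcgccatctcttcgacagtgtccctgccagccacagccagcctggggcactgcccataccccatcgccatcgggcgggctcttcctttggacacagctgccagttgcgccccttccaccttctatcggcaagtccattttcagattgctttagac
The Stra8 window holds AGGTCA on the gene's strand at 2 places, beginning 194 and 38 bases before the start. The Aldh1a1 window holds 1 motif, GGGTCA on the other strand, 49 bases before the start, and the Cyp26b1 window holds none of these letters. Another Aldh1a1 start, upstream of this one, has none either. Among all 32851 RefSeq promoter windows, 43.7% hold at least 1 of the motifs, 16.3% hold AGGTCA and 1.79% hold AGGTCA at 2 or more places. No member window holds a direct repeat of the motifs with 1, 2 or 5 bases between them, which 0.588% of all windows do. Promoter windows were found for 8 of the 9 genes, all but Rdh10, and these matches are a description of letters, not of binding.

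Levels of different genes were compared per length, as RPM divided by exon length in kilobases (RPKM), with lengths from GENCODE release 21 for mouse. For Aldh1a1 that annotation starts at 20492715, upstream of the deposited interval (20601961), so its length may be too long and its RPKM too low. In the controls Aldh1a1 was highest at 155 ± 42.2 RPKM (SD, n = 7), followed by Aldh1a2 at 82.7 ± 13.6 RPKM, with no overlap of their ranges. Stra8 (7.79 ± 1.17), Crabp1 (6.36 ± 3.02), Rara (6.26 ± 0.935), Rxra (5.08 ± 2.69) and Rdh10 (4.15 ± 0.650) came next, and neighbours among these 5 overlapped in their control ranges. Cyp26b1 at 1.33 ± 0.314 RPKM and Rarg at 0.284 ± 0.149 RPKM had the lowest means. The Cyp26b1 range (0.926 to 1.82 RPKM) overlapped those of Rxra (from 0.971) and Crabp1 (from 1.37) but not that of its neighbour Rdh10 (from 3.40), and Rarg (up to 0.474 RPKM) lay below it. The retinaldehyde dehydrogenases, which carry out the last step of synthesis, were thus the most abundant of the 9 in these testes, and the degrading enzyme one of the scarcest. In the KO-labelled libraries Aldh1a1 stood at 301 ± 32.4 RPKM (n = 6), Aldh1a2 at 98.6 ± 9.06 RPKM, Stra8 at 15.2 ± 5.88 RPKM and Cyp26b1 at 3.001 ± 1.49 RPKM.

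**Figure D1:**
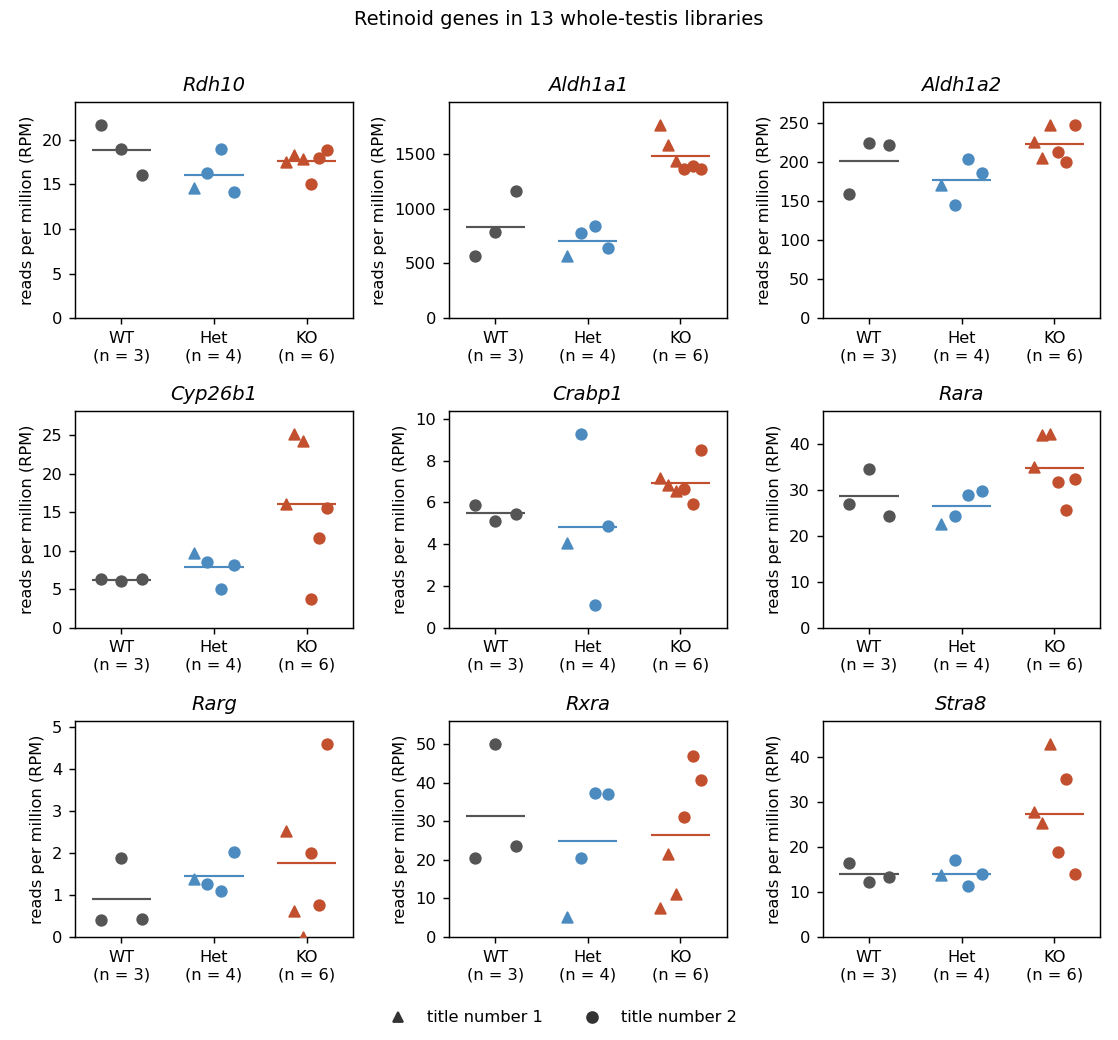
RPM of each of the 9 genes (vertical axis, from 0, a scale of its own in each panel) in the WT, Het and KO libraries, 1 point per library, with the genotype mean as a line, triangles for title number 1 and circles for title number 2. All 6 Aldh1a1 points labelled KO lie at 1359 RPM or above, over the highest control at 1163 RPM, while Rxra is low in the triangles of both Het and KO.

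Rdh10 codes for the enzyme that turns retinol into retinaldehyde, the first step of synthesis, and lies on chromosome 1 (16105774 to 16133734, mm10, plus strand). Its level was 21.7, 18.9 and 16.1 RPM in WT replicates 1 to 3, 14.6, 16.3, 19.0 and 14.1 RPM in Het replicates 1 to 4, and 17.5, 18.3, 17.8, 15.1, 17.9 and 18.8 RPM in KO replicates 1 to 6. All 6 KO-labelled libraries lay inside the control range. The difference was 0.04 (SE 0.142, adjusted p = 0.885), and its sign turned with median-of-ratios scaling (-0.11) and quantile normalization (-0.25).

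Aldh1a1, on chromosome 19 (20601961 to 20643462, plus strand), codes for a retinaldehyde dehydrogenase known from Sertoli and Leydig cells. It was at 564, 783 and 1163 RPM in the WT libraries and at 569, 781, 845 and 639.9 RPM in the Het libraries. The KO-labelled libraries held 1764, 1584, 1437, 1367, 1394 and 1359 RPM. Every one of these lay above every control, a pattern that 5.06% of all tested genes showed upward. The rise was 1.99-fold on RPM + 1 (log2 0.99, SE 0.128, adjusted p = 1.67e-05 in limma). It was called without any single library (adjusted p from 1.33e-06 to 7.26e-05) and under each of the scalings and filters tried, and among libraries of title number 2 alone it was 0.82 (adjusted p = 0.00301). A close relative, Aldh1a7, shares 3.06% of the 50-base windows of Aldh1a1 transcripts, so a small part of its reads could have been placed on the other gene.

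Aldh1a2, on chromosome 9 (71215789 to 71296243, plus strand), codes for the retinaldehyde dehydrogenase known from meiotic and later germ cells. It was at 159, 224 and 222 RPM in WT, 171, 145, 204 and 186 RPM in Het, and 225, 206, 247, 213, 200.3 and 247 RPM in KO replicates 1 to 6. In KO replicates 1, 3 and 6 it lay above the highest control, and in the other 3 within the control range. The difference of 0.26 (SE 0.102) did not pass (adjusted p = 0.0635). It passed with quantile normalization (adjusted p = 0.0363), without WT replicate 2 (0.0322) and without WT replicate 3 (0.0336). Of the 13 fits without 1 library, it passed in these 2 alone. It was 0.11 with median-of-ratios scaling (adjusted p = 0.468) and 0.22 with title number 2 alone (0.318). The ratio of the 2 enzymes separated the groups, as Aldh1a1 did by itself, and how many other gene pairs do so was not counted. The log2 of Aldh1a1 over Aldh1a2 (each RPM + 1) was 1.73 to 2.42 among controls and 2.45 to 2.96 in the KO-labelled libraries, with no overlap.

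Cyp26b1, on chromosome 6 (84571414 to 84593908, minus strand), codes for the cytochrome P450 that oxidises retinoic acid, known in the testis from peritubular cells. It was at 6.27, 6.04 and 6.30 RPM in WT and 9.72, 8.54, 4.96 and 8.09 RPM in Het. In KO replicates 1 to 6 it was at 16.1, 25.1, 24.2, 3.77, 11.7 and 15.5 RPM. All but replicate 4 lay above all controls, and replicate 4, the shallowest library, was the lowest of all 13. The rise was 1.87-fold on RPM + 1 (log2 0.91, SE 0.301, adjusted p = 0.0319). It was lost with median-of-ratios scaling (log2 0.77, adjusted p = 0.0717), quantile normalization (0.64, 0.144), no filter on low genes (0.91, 0.0756), title number as a term (0.58, 0.136) and title number 2 alone (0.39, 0.485), and without any 1 of WT replicate 1 (0.0525), Het replicate 3 (0.0624) or KO replicates 1 (0.0600), 2 (0.0851), 3 (0.0888) and 6 (0.0549). Without KO replicate 4 it was 1.24 with adjusted p = 0.000435.

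Crabp1 codes for a small protein that holds retinoic acid in the cytoplasm and lies on chromosome 9 (54764748 to 54773110, plus strand). It was at 5.87, 5.10 and 5.46 RPM in WT, 4.04, 9.26, 1.10 and 4.89 RPM in Het, and 7.15, 6.83, 6.54, 6.65, 5.92 and 8.49 RPM in KO replicates 1 to 6. The 6 KO-labelled libraries stayed close together, between the Het extremes. Their difference from the controls was 0.50 (SE 0.274, adjusted p = 0.198), and 0.26 without Het replicate 3.

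Rara codes for the receptor RAR alpha, known from Sertoli cells and germ cells, and lies on chromosome 11 (98927818 to 98974942, plus strand). It was at 26.9, 34.5 and 24.4 RPM in WT, 22.6, 24.4, 28.9 and 29.8 RPM in Het, and 35.03, 42.0, 42.0, 31.7, 25.7 and 32.4 RPM in KO replicates 1 to 6. The 3 highest values belong to KO replicates 1 to 3, and the others labelled KO lay within the control range. The difference of 0.33 (SE 0.139) did not pass (adjusted p = 0.0874), and it was 0.18 with median-of-ratios scaling and 0.11 with quantile normalization. Without KO replicate 5 it passed (0.41, adjusted p = 0.0373).

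Rarg, on chromosome 15 (102234938 to 102257517, minus strand), codes for RAR gamma, the receptor of undifferentiated and early differentiating spermatogonia. It was at 0.405 to 2.02 RPM among controls (3 to 14 reads) and 0 to 4.59 RPM in the KO-labelled libraries. In KO replicate 3 it had no read, which allows up to 0.491 RPM (3 reads, 95% confidence, counting error only). The difference of 0.14 (SE 0.351, adjusted p = 0.804) was smaller than its standard error, and without KO replicate 6 it was -0.11.

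Rxra codes for RXR alpha, a partner of the retinoic acid receptors, and lies on chromosome 2 (27676440 to 27762957, plus strand). It was at 20.5, 50.03 and 23.7 RPM in WT, 5.30, 20.4, 37.2 and 37.1 RPM in Het, and 7.43, 21.4, 11.1, 31.0, 46.8 and 40.6 RPM in KO replicates 1 to 6. The spread within each genotype was far wider than the difference between groups, -0.10 (SE 0.418, adjusted p = 0.895), whose sign turned without any 1 of WT replicate 2, Het replicates 3 and 4 or KO replicates 1 and 3 (0.01 to 0.19). The low values followed the title number. The 4 libraries of number 1 held 5.30 to 21.4 RPM and the 9 of number 2 held 20.4 to 50.03 RPM, overlapping where KO replicate 2 (21.4 RPM) lay above Het replicate 2 (20.4 RPM) and WT replicate 1 (20.5 RPM).

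In a fit with title number as a term beside genotype (KO or control), Rxra was lower in number 1 than in number 2 (log2 difference -1.85, SE 0.275, limma adjusted p = 0.000971). This term was looked at after the values of Rxra had been seen. Of all tested genes 0.499% were called lower in number 1 by this term and 0.271% higher, and Rxra was the only member called. It was called without any single library, most weakly without Het replicate 1 (-1.60, adjusted p = 0.0303), and with both other scalings and limma-voom. Among the controls, the number and the single library Het replicate 1 cannot be told apart. In the same fit the KO minus control difference of Rxra was 0.56 (SE 0.254, adjusted p = 0.120). The next member by the title number term was Cyp26b1 (0.92, SE 0.292, adjusted p = 0.203).

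Stra8, on chromosome 6 (34920163 to 34939342, plus strand), is the gene that retinoic acid switches on in germ cells about to enter meiosis, and its product is needed for that step. It was at 16.4, 12.2 and 13.3 RPM in WT, 13.8, 17.3, 11.4 and 14.0 RPM in Het, and 27.7, 25.5, 43.0, 18.8, 35.2 and 14.0 RPM in KO replicates 1 to 6. The 7 controls stayed within 11.4 to 17.3 RPM, 5 of the 6 KO-labelled libraries lay above them, and KO replicate 6 lay among them. The rise was 1.79-fold on RPM + 1 (log2 0.84, SE 0.205, adjusted p = 0.00509). It was called without any single library (adjusted p from 0.000599 to 0.0170), with title number as a term (0.72, 0.0209), with median-of-ratios scaling (0.69, 0.0181) and with quantile normalization (0.59, 0.0468). With title number 2 alone it was 0.56 (adjusted p = 0.167).

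Split by title number, the KO-labelled libraries of number 1 (n = 3) differed from all controls in more of the 9 genes than those of number 2 (n = 3). The only control of number 1 is Het replicate 1. In number 1 against all controls, the KO label and the title number are thus largely mixed. In number 1, 4 members rose and none fell, where 17.4% of all tested genes were called higher and 5.78% lower. Cyp26b1 rose by 1.49 (SE 0.310, adjusted p = 0.00179), Stra8 by 1.11 (SE 0.241, adjusted p = 0.00242), Aldh1a1 by 1.10 (SE 0.152) and Rara by 0.53 (SE 0.160, adjusted p = 0.0211). The Rara call ended without KO replicate 2 (adjusted p = 0.0871) or KO replicate 3 (0.0921), and with median-of-ratios scaling (0.38, 0.0845) and quantile normalization (0.31, 0.185). Rxra was at -0.90 (SE 0.422, adjusted p = 0.132) and was called lower without Het replicate 1 (-1.22, adjusted p = 0.00637) and with quantile normalization (-1.19, 0.0470). Leaving out Het replicate 1 removes the only control of number 1, so that Rxra call cannot be told apart from the title number.

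In number 2, 1 member rose, Aldh1a1 (0.89, SE 0.152, adjusted p = 0.000597), where 8.48% of all tested genes were called higher and 4.69% lower. Stra8 stood at 0.57 (SE 0.241, adjusted p = 0.128), Cyp26b1 at 0.32 (SE 0.310, adjusted p = 0.531) and Rara at 0.13 (SE 0.160, adjusted p = 0.637). Without KO replicate 6 Stra8 passed there too (0.85, adjusted p = 0.0469), while Cyp26b1 went to -0.038. Without KO replicate 5 Stra8 was at 0.21 (adjusted p = 0.645), and without KO replicate 4 Cyp26b1 was at 0.86 (adjusted p = 0.0563). The difference between the 2 sets of KO-labelled libraries was tested directly. No member passed (limma adjusted p from 0.175 to 0.993, 3 unadjusted p under 0.05, none called with limma-voom), where 0.154% of all tested genes were called higher, 0.191% lower and 0.345% in either direction, and 12.6% had an unadjusted p under 0.05. The unadjusted ones were Rxra (number 2 minus number 1, 1.60, SE 0.4996, adjusted p = 0.175), Cyp26b1 (-1.17, SE 0.367, adjusted p = 0.178) and Rara (-0.40, SE 0.189, adjusted p = 0.387), and Stra8 differed by -0.55 (SE 0.285, adjusted p = 0.449). Without Het replicate 1 the same Rxra difference had adjusted p = 0.0329.

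**Figure D2:**
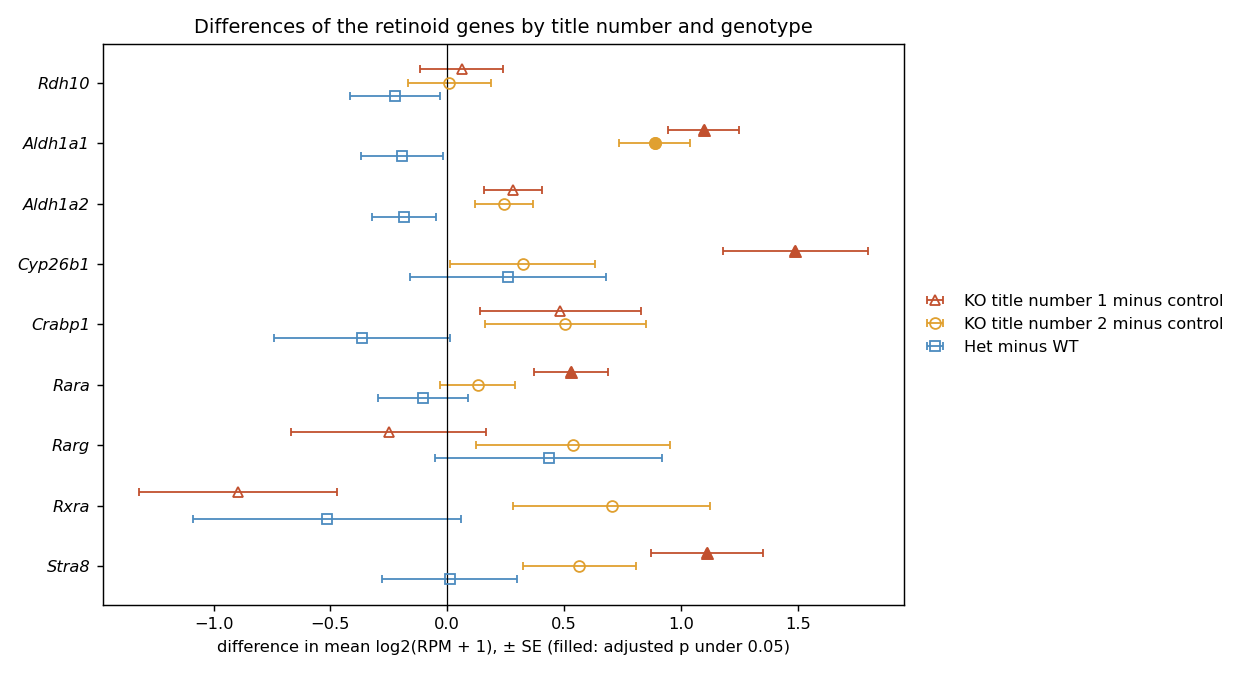
Difference in mean log2(RPM + 1) with its SE (horizontal axis) for each of the 9 genes, for KO title number 1 minus control (triangles), KO title number 2 minus control (circles) and Het minus WT (squares), filled where adjusted p was under 0.05. Aldh1a1 is filled in both KO sets (1.10 and 0.89), Cyp26b1, Stra8 and Rara only in number 1, and no square is filled.

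Between Het and WT no member passed the test (limma adjusted p from 0.935 to 0.998), none had an unadjusted p under 0.05 and limma-voom called none, where 0% of all tested genes were called and 5.89% had an unadjusted p under 0.05. The largest differences were Rxra at -0.51 (SE 0.572) and Rarg at 0.43 (SE 0.484), both of about the size of their standard errors. Set against WT alone (n = 3), Aldh1a1 rose in the KO-labelled libraries by 0.88 (SE 0.161, adjusted p = 0.00220), where 6.05% of all tested genes were called higher and 3.34% lower. Stra8 stood at 0.84 (SE 0.266, adjusted p = 0.0504) and Cyp26b1 at 1.06 (SE 0.387, adjusted p = 0.0907). Without KO replicate 4 both passed (adjusted p = 0.0355 and 0.00395), and without KO replicate 6 Stra8 did (0.0105), as it did with a filter of 5 RPM (0.0413).

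Set against Het alone (n = 4), 3 members rose and none fell, where 16.9% of all tested genes were called higher and 5.15% lower. They were Aldh1a1 (1.08, SE 0.147, adjusted p = 3.76e-05), Stra8 (0.83, SE 0.243, adjusted p = 0.0174) and Aldh1a2 (0.34, SE 0.116, adjusted p = 0.0388), and Cyp26b1 stood at 0.80 (SE 0.353, adjusted p = 0.115). With median-of-ratios scaling Aldh1a1 alone kept its call, as Stra8 was at 0.67 (adjusted p = 0.0552) and Aldh1a2 at 0.17 (0.332). The Stra8 call ended without Het replicate 3 (0.0614) and with quantile normalization (0.131), and that of Aldh1a2 without any 1 of Het replicates 1, 2 and 4 or KO replicates 1, 3 and 6 (0.0567 to 0.145). Cyp26b1 passed without KO replicate 4 (1.13, 0.00313).

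Other genes of the retinoid pathway were taken from 6 lists by role. Of 76 such genes 74 were in the table and 56 were tested, of which 16 rose and 6 fell in the KO-labelled libraries (28.6% and 10.7%, beside 18.4% and 6.18% of all tested genes), with a median of 0.17 beside 0.16. With median-of-ratios scaling 11 rose and 8 fell, with quantile normalization 12 and 8, and with title number 2 alone 8 and 3. Of the 14 tested genes listed under retinaldehyde and retinoic acid synthesis, 6 rose and none fell (median 0.35, and 6 and 5 rose with median-of-ratios scaling and quantile normalization). The list holds enzymes of the families involved, and whether each one makes or uses up retinaldehyde was not tested. The alcohol dehydrogenase gene Adh1 went from 22.9 ± 7.13 RPM (SD, n = 7) to 76.2 ± 30.2 RPM (n = 6, log2 1.65, SE 0.211, adjusted p = 1.64e-05), with no overlap between the highest control (36.3 RPM) and the lowest KO-labelled library (49.8 RPM). Adh5, an alcohol dehydrogenase that also handles formaldehyde, rose by 0.99 (SE 0.128) and the dehydrogenase gene Dhrs7 by 1.01 (SE 0.142). Aldh1a3, the third retinaldehyde dehydrogenase, was at 1.78 ± 1.56 RPM among controls against 6.40 ± 2.07 RPM in the KO-labelled libraries (log2 1.502, SE 0.291, adjusted p = 0.000799). Each of these 4 was also called with title number 2 alone.

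Of 9 tested genes that take up, carry or store retinol, 1 rose and 4 fell (median -0.45, and 1 and 5 with median-of-ratios scaling and with quantile normalization). These are 11.1% and 44.4%, beside 18.4% and 6.18% of all tested genes. The retinol transporter gene Stra6 averaged 77.8 ± 11.6 RPM among controls against 56.3 ± 4.099 RPM under the KO label and fell (log2 -0.45, SE 0.107, adjusted p = 0.00414), and its highest level there (61.5 RPM) lay below its lowest control (62.6 RPM), as did 2.89% of all tested genes. Lipe, the hormone-sensitive lipase that can free retinol from its esters and whose main substrates are other lipids, fell by 0.78 (SE 0.112). Bco2, a carotenoid-cleaving enzyme, fell by 0.97 (SE 0.283) on 3.74 ± 1.89 RPM among controls, and with title number 2 alone it had adjusted p = 0.0614. The fourth, named because the count is small, was the endocytic receptor gene Lrp2 (-1.04, SE 0.363, adjusted p = 0.0409), which was at -0.33 with title number 2 alone. Lrat, which esterifies retinol for storage, stood at 14.8 ± 2.05 and 13.1 ± 4.15 RPM (log2 -0.21, adjusted p = 0.441).

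Of 3 tested breakdown genes other than Cyp26b1, 2 rose, where 18.4% of all tested genes were called higher and 6.18% lower. Lists of 3 genes are too short for their counts to be read as results. Ugt1a1, a glucuronosyltransferase, rose by 0.63 (SE 0.137, adjusted p = 0.00226) and Cyp2s1, a cytochrome P450, by 0.92 (SE 0.291, adjusted p = 0.0244). With title number 2 alone neither was called (0.0529 and 0.241), and Cyp2s1 was not called with either other scaling (0.0508 and 0.0923). Cyp26a1, the sister enzyme of Cyp26b1, was at 2.15 ± 0.573 RPM among controls against 1.61 ± 1.38 RPM in the KO-labelled libraries (log2 -0.45, SE 0.322, adjusted p = 0.330). Of 3 tested carriers Fabp5, a fatty acid-binding protein that can carry retinoic acid, rose by 0.84 (SE 0.255, adjusted p = 0.0204), and Fabp9, the fatty acid-binding protein of spermatids, fell by 0.36 (SE 0.0907, adjusted p = 0.00609). Neither call held with quantile normalization (0.114 and 0.169) or with title number 2 alone (0.257 and 0.0769), nor that of Fabp5 with median-of-ratios scaling (0.0503). Crabp2 had means under the level of 3 reads in both groups and was not tested.

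Of 18 receptor and co-regulator genes 3 rose and 1 fell, which is 16.7% and 5.56%, near the 18.4% and 6.18% of all tested genes, and is not read as a result about the list (median 0.06, turning to -0.09 with median-of-ratios scaling, where none rose and 2 fell, and to -0.04 with quantile normalization, where 2 rose and 3 fell). The corepressor gene Ncor1 rose by 0.32 (SE 0.0969), the deacetylase gene Hdac3 of the same complex rose by 0.41 (SE 0.101) and the coactivator gene Ep300 rose by 0.62 (SE 0.191). None of these 3 was called with title number 2 alone. The receptor gene Rarb, itself a classical target of retinoic acid, was at 1.49 ± 0.925 RPM among controls against 1.23 ± 0.384 RPM in the KO-labelled libraries (log2 -0.07, SE 0.297, adjusted p = 0.898).

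Of 15 tested genes known to be induced by retinoic acid, 5 rose and 1 fell (median 0.29, and 0.05 with quantile normalization, where 4 rose). These are 33.3% and 6.67%, beside 18.4% and 6.18% of all tested genes. Tgm2, a transglutaminase, averaged 25.7 ± 13.01 RPM among controls against 98.4 ± 23.6 RPM under the KO label (log2 2.00, SE 0.236, adjusted p = 7.71e-06). Kit, a receptor gene also listed here as a marker of differentiating spermatogonia, went from 32.7 to 62.0 RPM over the controls to 80.8 to 140.1 RPM over the KO-labelled libraries, with no overlap (log2 1.21, SE 0.161). Which cells the Kit reads come from was not tested. Rec8, a meiotic cohesin gene that retinoic acid induces beside Stra8, was at 41.02 ± 4.06 and 48.1 ± 7.01 RPM (log2 0.22, SE 0.113, adjusted p = 0.165). Kit and Tgm2 were called with both other scalings and with title number 2 alone.

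**Figure D3:**
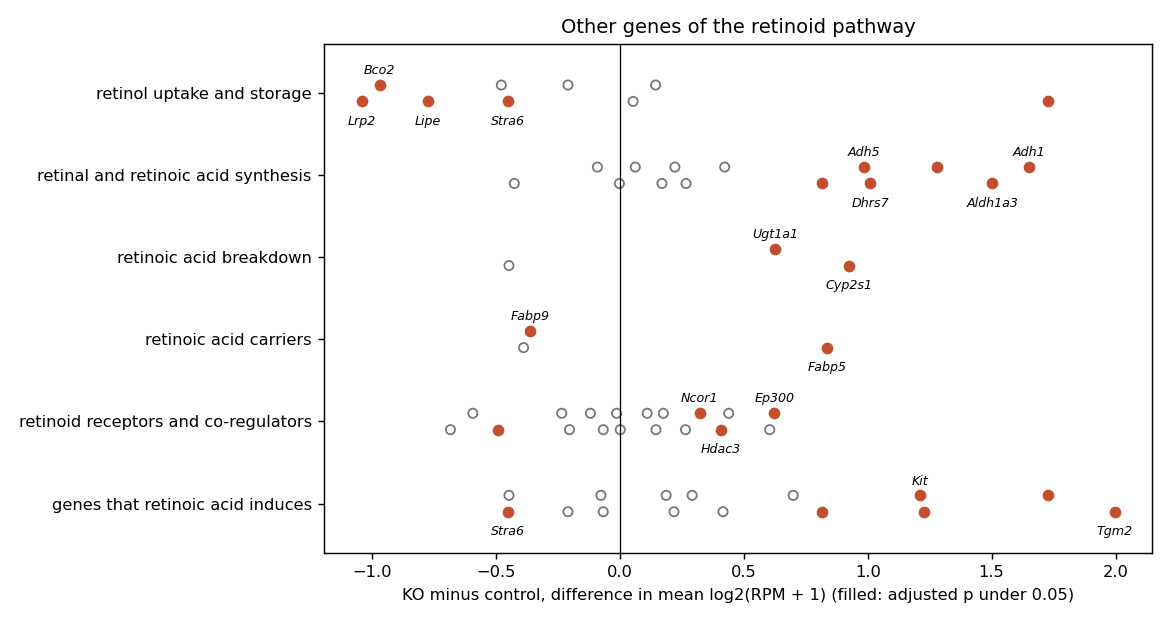
Difference in mean log2(RPM + 1) of KO minus control (horizontal axis) for each tested gene of the 6 pathway lists, 1 point per gene, filled where adjusted p was under 0.05 with the called genes that the text describes named (a gene in 2 lists appears in both). The 6 filled genes of the synthesis list all lie to the right of 0, and 4 of the 5 filled genes of the uptake and storage list lie to the left.

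Markers of whole cell types were measured beside these genes. Their counts stand beside 18.4% of all tested genes called higher and 6.18% called lower in the KO-labelled libraries. Of 12 Sertoli cell markers 8 rose and none fell, and their summed level was 1501 to 2495 RPM among controls against 2644 to 4117 RPM in the KO-labelled libraries. Most of that sum was Clu, the secreted chaperone clusterin (1403 ± 344 RPM among controls, SD, n = 7, and 2822 ± 518 RPM in the KO-labelled libraries, n = 6, log2 1.02), so a ratio to the Sertoli sum is mostly a ratio to Clu. The median difference over the 12 was 0.74. Of 8 Leydig cell markers 7 rose and none fell, with sums of 2351 to 4223 and 5655 to 9921 RPM. Aldh1a1, which both cell types are known to carry, moved along with them. Its log2 ratio to the Sertoli sum was -1.56 to -0.83 among controls and -1.52 to -0.96 in the KO-labelled libraries, all 6 inside the control range, and to the Leydig sum -2.43 to -1.63 and -2.65 to -1.98, with 5 of 6 inside the control range and 1 below it. Of 10 macrophage markers 7 rose and none fell (median 0.85, 6 rose with median-of-ratios scaling and 5 with quantile normalization), with sums of 835 to 1037 RPM among controls and 930 to 1147 RPM in the KO-labelled libraries. What part any of these markers has in the Aldh1a1 result was not tested.

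Stra8 was set beside markers of the germ cells around meiotic entry. The counts again stand beside 18.4% of all tested genes called higher and 6.18% called lower. Of 9 tested markers of undifferentiated spermatogonia none was called (median -0.04). Of 10 of meiotic entry and early prophase none was called (median 0.13, turning to -0.02 with median-of-ratios scaling and -0.01 with quantile normalization, where 1 fell in each). Of 7 of differentiating spermatogonia 2 rose, Kit and Ccnd2 (28.6%), and the other 5 were not called. The sum of the meiotic entry markers was 934 to 1124 RPM among controls against 1003 to 1137 RPM in the KO-labelled libraries. Most of that sum was Stag3 (605 ± 81.0 RPM among controls and 614 ± 35.2 RPM in the KO-labelled libraries, log2 0.03), so a ratio to this sum leans mostly on Stag3. The log2 ratio of Stra8 to this sum was -6.50 to -5.68 among controls and -6.16 to -4.69 in the KO-labelled libraries, with 4 of the 6 above all controls. Against the sum of the differentiating spermatogonia markers the Stra8 ratio was -5.64 to -5.19 among controls and -5.52 to -3.97 in the KO-labelled libraries. There too 4 of the 6 lay above all controls. Most of this sum was Tex101 (282 ± 45.0 RPM among controls, log2 0.21) and Dmrtb1 (261 ± 44.6 RPM, log2 -0.21), and neither was called. This ratio thus leans mostly on those 2 genes. Against Kit alone, 1 of the 2 markers of that list that rose, the ratio was -2.25 to -0.95 among controls. In the KO-labelled libraries it was -2.45 to -1.20, 3 of them inside the control range and 3 below it. Of 8 round spermatid markers 3 fell and none rose (median -0.22, with 5 falling under median-of-ratios scaling), and of 8 pachytene markers 2 fell. All 10 late spermatid markers fell, with sums of 13727 to 18142 RPM among controls against 5712 to 9064 RPM in the KO-labelled libraries. What part that has in the level of Stra8 or of any other member, which are given as shares of all reads, was not tested.

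For Cyp26b1, of 6 peritubular markers 1 rose, 1 fell and 4 were not called. Of all tested genes 18.4% were called higher and 6.18% lower. Myh11, the smooth muscle myosin, rose by 0.75 (SE 0.221, adjusted p = 0.0162), Acta2, smooth muscle actin, stood at 0.47 (SE 0.194, adjusted p = 0.0809), and Actg2, most of the list's summed level, fell by 0.66 (SE 0.0815). The sum of the 6 was 307 to 367 RPM among controls against 234 to 323 RPM in the KO-labelled libraries. Of 6 endothelial markers 2 rose, with sums of 7.43 to 32.5 and 30.1 to 49.9 RPM. Against the Sertoli sum the log2 ratio of Cyp26b1 was -8.42 to -7.13 among controls and -9.23 to -7.16 in the KO-labelled libraries, with 5 of 6 inside the control range and KO replicate 4 below it. Against the peritubular sum, which is mostly Actg2, it was -5.85 to -4.84 among controls and -5.80 to -3.22 in the KO-labelled libraries, with 5 of 6 above every control. Which cells the Actg2 reads come from was not tested, so this ratio is not read as Cyp26b1 per peritubular cell. Whether peritubular, endothelial or Sertoli cells have a part in the Cyp26b1 result was not tested. Markers of rete testis, efferent duct and epididymis, other places where retinoid genes are active, summed to 6.92 to 9.77 RPM among controls against 5.28 to 11.9 RPM in the KO-labelled libraries.

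**Figure D4:**
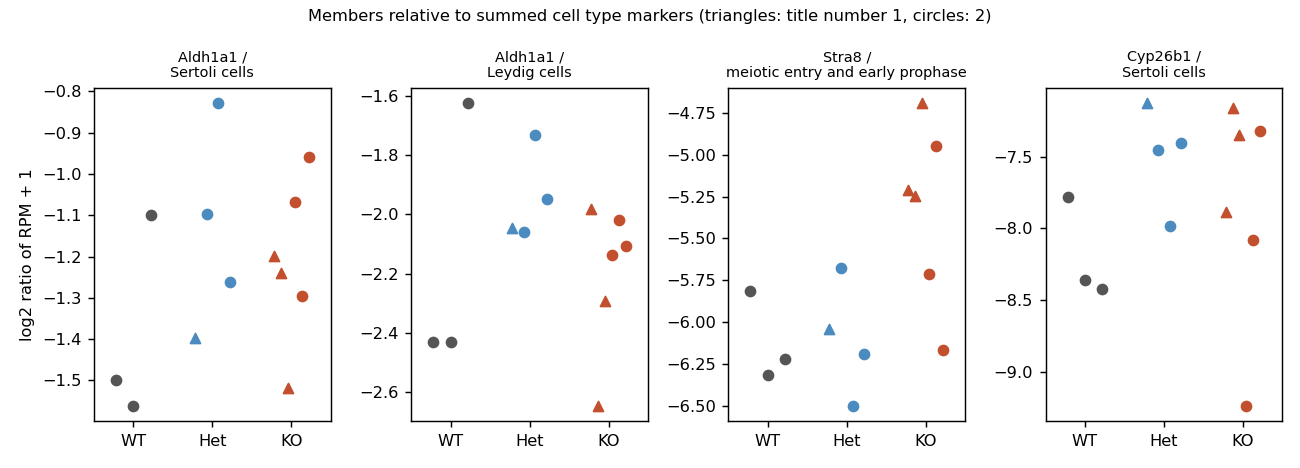
Log2 ratio of RPM + 1 (vertical axis, a scale of its own in each panel) of Aldh1a1 to summed Sertoli and Leydig markers, Stra8 to summed markers of meiotic entry and Cyp26b1 to summed Sertoli markers, 1 point per library, triangles for title number 1 and circles for 2. The Aldh1a1 to Sertoli ratios labelled KO lie within the control range, while 4 of 6 Stra8 ratios lie above every control.

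The genes whose pattern over the 13 libraries was most like each of the 3 that rose were found by the root mean square difference of log2(RPM + 1), each gene taken relative to its own control mean, among 10312 genes with a control mean of at least 5 RPM, predicted and Rik genes left out. Nearest to Aldh1a1 were Gpd1, glycerol-3-phosphate dehydrogenase (0.15), the relative Aldh1a7 (0.16), which may share reads with it, and Cpt1a, which brings fatty acids into mitochondria (0.16), where the median gene lay at 0.68. Nearest to Stra8 were Arhgdig, an inhibitor of small GTPases (0.19), the mitochondrial channel gene Vdac1 (0.25) and the microtubule gene Mtap1b (0.27), beside a median of 0.66. Nearest to Cyp26b1 were the transcription factor genes Osr2 (0.35) and Zeb1 (0.36) and the Ras-like gene Rasl12 (0.37), beside a median of 0.83. The match of Cyp26b1 to its nearest genes was looser than that of Aldh1a1 to its own.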

How the data were processed

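Smart-seq2 libraries took about 2 ng of total RNA and 11 PCR cycles, per the labels' protocols. The submitters' processing notes name FastQC 0.11.8, Trim Galore 0.6.6 and mm10, and aligner, counter and strandedness were not given in the sources used here. The authors deposited log2 RPM values. They were turned back to RPM, setting each library's lowest value (that of 0.9 read) to 0, and 99.96% or more of the rest came out as whole reads, within 0.01 read.

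Tests were limma 3.58.1 (R 4.3.3) with a mean-variance trend on log2(RPM + 1), for genes averaging 1 RPM or more, adjusted by Benjamini-Hochberg over all of them, and were tested on simulated data. KO against control was fitted with 2 groups, the genotypes with 3, and the title numbers with 4 (WT, Het and both KO sets). Where a p is adjusted, it comes from limma. Each library was taken as a mouse, and p-values measure the spread between these libraries. Alternatives were other pseudocounts (0.5 and 0.1), filters (none and 5 RPM), scalings, limma-voom, replicate and title number terms and leaving out each library. The values of named genes follow a rule (all 9 members, up to 4 called genes of each retinoid list by adjusted p, 3 genes most like each called member, and cell type markers). Lrat, Cyp26a1, Crabp2, Rarb, Rec8, Lrp2, Ccnd2 and Actg2 are named outside it, with their values seen, and some genes that meet it are not reported here. Bco1, Adgre1 and Meiob were matched under older names. Members and lists were chosen with earlier results of these data known.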

Additional observations from a re-analysis of the deposited data

Results flagged for a closer look

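In the groups of 4 to 10 libraries, each member was checked for a library far from the rest on the log2(RPM + 1) scale (27 groups of values, 9 genes in control, Het and KO), and 2 were marked, where chance marks about 1 in 20. Rdh10 was at 15.1 RPM in KO replicate 4, the shallowest library, against 17.5 to 18.8 RPM in the other 5, with a gap of 0.675 of the whole range. Rxra was at 5.30 RPM in Het replicate 1, the only control of title number 1, against 20.4 to 50.03 RPM in the other 6 controls, with a gap of 0.585 of the range.

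Rxra was also marked because the KO-labelled libraries lay on opposite sides of the control mean by title number, all 3 of number 1 below and all 3 of number 2 above. The difference, number 2 minus number 1, was 1.60 (SE 0.4996) and did not pass in the test of the difference itself (limma adjusted p = 0.175).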

How the results depend on the processing

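The numbers of members called higher and lower stayed within 1.5 times of the reported ones in all settings but these. With title number 2 alone, 1 member, 8 other retinoid genes higher and 3 lower were called in KO against control, a comparison with fewer libraries. Against WT, 2 members were higher with a filter of 5 RPM, and 3 higher and 1 lower with the replicate block (Stra8 at 1.03, adjusted p = 0.0200, and Cyp26b1 at 1.35, 0.0438, joined Aldh1a1, and Rxra was lower). Against Het, 1 was higher with median-of-ratios scaling. In KO number 1 against control 1 was lower with quantile normalization, and in KO number 2 against control 0 were higher with the replicate block. Without single libraries the counts ranged from 1 to 3 higher against WT, 0 to 1 lower in number 1, 1 to 2 higher in number 2 and 0 to 1 higher between the numbers. Causes were not tested.

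Signs turned for Rdh10 in KO against control (-0.11 with median-of-ratios scaling, -0.25 with quantile normalization, -0.025 with title number 2 alone, -0.0070 to 0.090 without single libraries), Rarg (-0.090 with a pseudocount of 0.1, -0.0065 with quantile normalization, -0.14 with the replicate block, -0.11 to 0.39 without single libraries) and Rxra (0.56 with title number as a term, 0.38 with title number 2 alone, -0.42 to 0.19 without single libraries). In KO number 2 against control they turned for Cyp26b1 (-0.83 with the replicate block, -0.038 to 0.86 without single libraries), Rxra (-0.59 with the block) and Rara (-0.019 with median-of-ratios scaling, -0.077 with quantile normalization).

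Replicate numbers do not pair the libraries: same-numbered ones of different genotype had correlations of deviations from -0.0835 to 0.126 (1 of 10 over 0.1), and 2 of 11 libraries matched their own number best. With the block, Rara in KO against control had adjusted p = 0.0403 (log2 0.46), and Aldh1a1 in KO number 2 against control, which then rests on replicate 4, 0.159 (1.03). Depth limits Rarg most, at 0 to 40 reads a library.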
